A study of Homo sapiens with 12 samples.

Results

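EGR1, EGR2, EGR3 and EGR4 are the early growth response transcription factors, and NAB1 and NAB2 are corepressors that bind EGR1, EGR2 and EGR3. The 6 genes were taken by symbol from a deposited table of 20263 genes, and all 6 passed the filter on low counts together with 14287 genes in total. The set was chosen by measured values. EGR1 and EGR2 were already known to be among the genes that differed most between DdBIC and Ctrl cells and between DdBIC+Hemin and DdBIC cells. The values of these 2 comparisons, and of the interaction built on them, are therefore descriptions without a test.

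RNA was sequenced from A375 cells, an established human melanoma line labelled as wild type, in 4 groups of 3 libraries. Ctrl cells were the controls without DdBIC or hemin, and whether they received a vehicle is not given in the sources used here. DdBIC cells (written DBIC in the labels) received a benzimidazole ester that binds the orphan nuclear receptor Nur77. Hemin cells received hemin, a soluble form of heme, and DdBIC+Hemin cells received both. The compound was studied as an inducer of pyroptosis, a lytic form of cell death, and hemin was added to ask whether supplying heme alters the response to it. In the study's general culture methods serum was lowered during DdBIC treatment; the dose, the duration and whether the Ctrl and Hemin cultures used for sequencing had the same serum are not given in the sources used here, and all groups come from 1 cell line.

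EGR proteins bind GC-rich sites through zinc fingers. Their genes are immediate-early genes, which are transcribed within minutes of growth factor, depolarisation or stress signals because the factors that switch them on, such as SRF with its ETS partners and CREB, are present beforehand. The transcripts are short-lived. NAB1 and NAB2 bind a repression domain of EGR1, EGR2 and EGR3, but not EGR4, and recruit the NuRD chromatin complex, so that EGR target genes are held down. EGR proteins can switch on the NAB2 gene, which makes NAB2 a feedback inhibitor. In melanoma lines such as A375 the BRAF-MEK-ERK cascade, which feeds SRF partners, is active through mutant BRAF.

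The sequences before the transcript starts are shown so that matches to sites of the factors named above can be read in them. These sequences come from RefSeq entries on GRCh38.p14. Among the entries used here, 5 of the 6 genes were matched and EGR3 was not. The motifs searched on both strands of the 250 bases before each start were the CArG box (bound by SRF), TGACG (the core of the cyclic AMP response element, bound by CREB and ATF factors), GCGTGGGCG and GCGGGGGCG (2 forms of the EGR site, which overlap with GC-rich sites of SP factors), CCGGAA (the ETS core) and TATAAA. Capitals mark the matches, and a TGACG on the other strand reads CGTCA. The EGR1 stretch lies at chr5:138465229-138465478 on the plus strand. The EGR2 window lies at chr10:62816418-62816447 and the EGR4 window at chr2:73293641-73293670, both on the minus strand. The NAB1 windows lie at chr2:190648842-190648871 and chr2:190648897-190648926 and the NAB2 window at chr12:57089041-57089070, all on the plus strand.
EGR1, 250 bases before the start: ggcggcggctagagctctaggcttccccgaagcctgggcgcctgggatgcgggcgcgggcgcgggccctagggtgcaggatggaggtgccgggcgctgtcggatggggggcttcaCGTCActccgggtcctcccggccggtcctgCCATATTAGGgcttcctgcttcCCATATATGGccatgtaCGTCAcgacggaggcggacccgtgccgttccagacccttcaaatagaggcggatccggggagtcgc
EGR2, CArG box before the third start: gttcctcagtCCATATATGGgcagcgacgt
EGR4, TGACG core: gtttgggcatttaCGTCAcggcggcagggc
NAB1, EGR site of the second form: ggcccagcggcCGCCCCCGCccccgcccgg
NAB1, EGR site of the first form: cactcggccgcGCGTGGGCGggagccggag
NAB2, EGR site of the second form: ctgtgcgtcctGCGGGGGCGgaggcgcgga

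Among 35116 RefSeq stretches of the same length, 1.16% held a CArG box, 21.2% a TGACG core, 0.72% GCGTGGGCG and 4.72% GCGGGGGCG. These shares are over stretches with a median GC content of 58.0%, whereas the stretch before the first start was 68.4% GC in EGR1, 78.0% in NAB1 and 81.2% in NAB2, so they are no matched background for GC-rich sites. EGR1 held 2 CArG boxes, 105 to 96 and 83 to 74 bases before its start, with 1 TGACG core on either side of the pair. EGR2 has 3 RefSeq starts. The stretches before the first and second held none of the motifs, and that before the third, inside the gene as the table gives it, held 1 CArG box 71 to 62 bases before the start and 2 TGACG cores. EGR4 held 2 TGACG cores and no CArG box. NAB1 and NAB2 held no CArG box but EGR sites: 1 of the second form in NAB2, and in NAB1 a pair of the second form that overlap each other and, before its second start, 1 of the first form. NAB1 also held 1 TGACG core before the second and 1 before the third of its starts. The first starts of EGR4, NAB1 and NAB2 lie inside the gene spans given below, by 157, 2149 and 220 bases. The windows printed for these genes lie inside those spans as well. CCGGAA (14.5% of all stretches) and TATAAA (10.7%) had no match before any of these starts. A match is a description of letters, and no binding was measured.

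**Figure D1:**
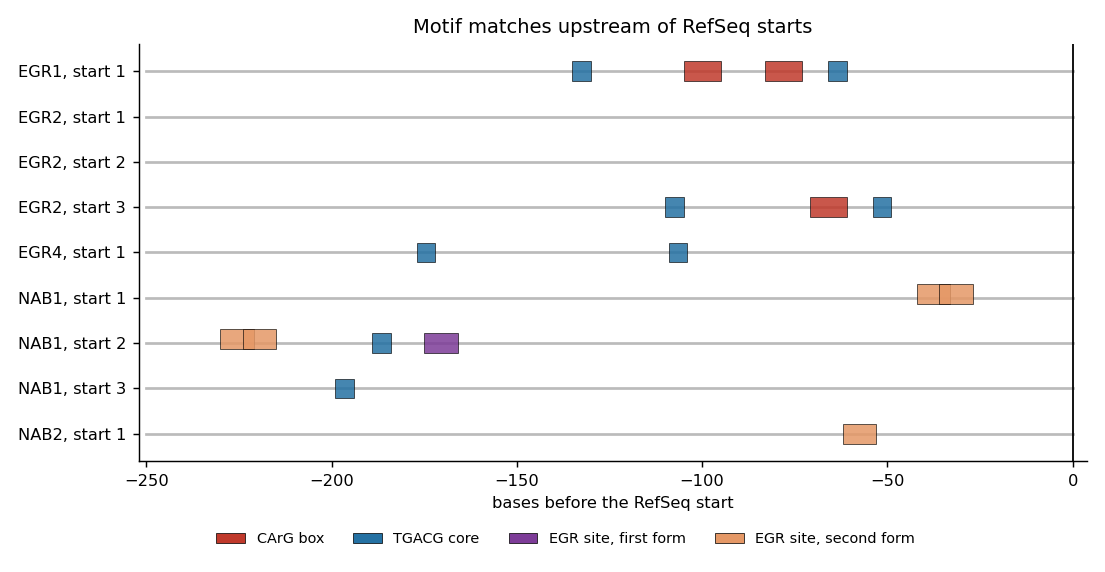
Matches to the CArG box, the TGACG core and the EGR site in the 250 bases before each RefSeq start of the 5 genes with an entry (horizontal axis, bases before the start). CArG boxes appear before EGR1 and the third start of EGR2, and EGR sites before NAB1 and NAB2 starts; orange boxes that overlap in NAB1 are the pair of overlapping matches.

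The libraries held 37951275 to 44358912 counts, and levels are given as CPM, which are counts scaled to a common library size with TMM factors, unless TPM, which are also scaled by transcript length, are named. At this depth 3 counts, the limit that a count of 0 allows, came to 0.0684 to 0.0784 CPM. HMOX1, which encodes the heme-inducible heme oxygenase, checked the hemin labels. It was at 8.71 ± 0.632 CPM in Ctrl and 63.2 ± 2 CPM in Hemin (mean ± SD, n = 3 in each group, as for all means below). Of 12 melanoma and melanocyte markers 7 reached a mean of 1 CPM, among them SOX10 and VIM, while the pigment genes PMEL, MLANA, TYR, TYRP1 and DCT were at 0.00806 to 0.68 CPM. Immune markers summed to 0.409 to 1.3 CPM per library, with PTPRC at 0 in all libraries. The 4 fibroblast markers, all above 1 CPM on average, summed to 21.9 to 22.9 CPM in DdBIC and 25.4 to 28.9 CPM in the other 3 groups, and their part in the results below was not tested. In bulk RNA of 1 cell line, fewer cells that express a gene and less of its RNA per cell cannot be told apart.

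EGR1 was the most abundant of the 4 factors by TPM in every group. This factor is the usual early reporter of growth and stress signals and acts on genes of growth, coagulation and cell death. Its gene (ENSG00000120738, chr5:138465490-138469315, plus strand) was at 23.8, 30.3 and 28.2 CPM in the Ctrl libraries, 2878, 2189 and 2412 CPM in DdBIC, 23.9, 26.6 and 27.5 CPM in Hemin and 50.4, 50.6 and 59.3 CPM in DdBIC+Hemin. The DdBIC libraries lay far above all others, the DdBIC+Hemin libraries lay above both remaining groups, and Ctrl and Hemin overlapped. The mean was 90.9-fold higher in DdBIC than in Ctrl, a log2 fold change of 6.51 ± 0.149 (standard error), the twelfth largest of all tested genes. With hemin added to DdBIC the level was lower by 5.55 ± 0.142 on the log2 scale. In order of TPM, EGR1 stood at place 65 to 88 of the 20263 genes in the DdBIC libraries, at place 6594 to 7443 in Ctrl and at place 4275 to 4812 in DdBIC+Hemin.

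EGR2 was hardly read in the absence of DdBIC. The factor is known for its part in myelination by Schwann cells and in lymphocyte tolerance. The gene (ENSG00000122877, chr10:62811996-62819167, minus strand) had 16, 17 and 27 counts in the Ctrl libraries, 3218, 2159 and 3020 in DdBIC, 21, 15 and 12 in Hemin, and 50, 60 and 67 in DdBIC+Hemin. In CPM these were means of 0.505 ± 0.161, 69.1 ± 15, 0.405 ± 0.113 and 1.42 ± 0.159. Neither group with DdBIC overlapped with the groups without it. The rise from Ctrl to DdBIC was 136-fold, with a log2 fold change of 7.09 ± 0.248, which was above that of EGR1 from a lower start of 0.347 TPM in Ctrl against 18.1 TPM for EGR1. With hemin added to DdBIC the log2 fold change was -5.60.

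EGR3, a close relative of EGR1 that is needed in muscle spindles and lymphocytes, was the second most abundant factor by TPM in every group. The gene (ENSG00000179388, chr8:22687659-22693302, minus strand) was at 25.0, 23.9 and 24.6 CPM in Ctrl and 384, 300 and 345 CPM in DdBIC. It was at 17.0, 15 and 19.1 CPM in Hemin and 28.8, 27.6 and 33.5 CPM in DdBIC+Hemin. No pair of groups overlapped, and the order from low to high was Hemin, Ctrl, DdBIC+Hemin and DdBIC. The mean was 14-fold higher in DdBIC than in Ctrl (log2 fold change 3.81 ± 0.118), and hemin added to DdBIC lowered it by a log2 fold change of -3.52. The annotation lists a noncoding gene, AC055854.1, that overlaps EGR3 on the opposite strand by 3153 bases, and the use of strand in counting is not given in the sources used here.

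EGR4, known mostly from neurons and germ cells, was the least abundant factor by TPM in DdBIC cells and the most variable between those libraries. The gene (ENSG00000135625, chr2:73290929-73293705, minus strand) had 28, 31 and 51 counts in Ctrl, 333, 799 and 1244 in DdBIC, 56, 44 and 31 in Hemin and 48, 77 and 80 in DdBIC+Hemin. The DdBIC libraries lay above all others but spread from 8.57 to 29.4 CPM, and the other 3 groups overlapped. The rise from Ctrl to DdBIC was 20.7-fold (log2 fold change 4.37 ± 0.479), and the log2 fold change with hemin added to DdBIC was -3.55.

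When DdBIC cells were set beside either Ctrl or DdBIC+Hemin cells, NAB1 and NAB2 differed far less than the EGR genes. Between the groups other than DdBIC this did not hold for every gene. NAB1 (ENSG00000138386, chr2:190646746-190692766, plus strand) was at 29.8, 21.6 and 22.7 CPM in Ctrl, 50.9, 46.2 and 49.4 CPM in DdBIC, 27.1, 25.4 and 28.3 CPM in Hemin and 33.1, 32.6 and 30.8 CPM in DdBIC+Hemin. Its DdBIC libraries did not overlap with any others, and the level was 1.98-fold that of Ctrl (log2 fold change 0.98 ± 0.103). NAB2 (ENSG00000166886, chr12:57088894-57095476, plus strand) was at 129, 131 and 127 CPM in Ctrl, 174, 177 and 181 CPM in DdBIC, 113, 110 and 110 CPM in Hemin and 131, 124 and 127 CPM in DdBIC+Hemin. The rise from Ctrl to DdBIC was 1.38-fold (log2 fold change 0.46 ± 0.0295), and the DdBIC+Hemin libraries lay around the Ctrl level. With hemin added to DdBIC, the log2 fold changes were -0.60 for NAB1 and -0.48 for NAB2. The annotation lists 2 noncoding genes on the strand opposite NAB1, AC006460.2 and AC006460.1, that overlap its span by 3095 and 15823 bases. They are not among the tested genes, and without strand their reads and those of NAB1 cannot be told apart. NAB2 overlaps STAT6 on the opposite strand by 69 bases. STAT6, with a mean of 76.5 CPM, had a log2 fold change of -0.04 in DdBIC against Ctrl (adjusted p = 0.688, edgeR).

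**Figure D2:**
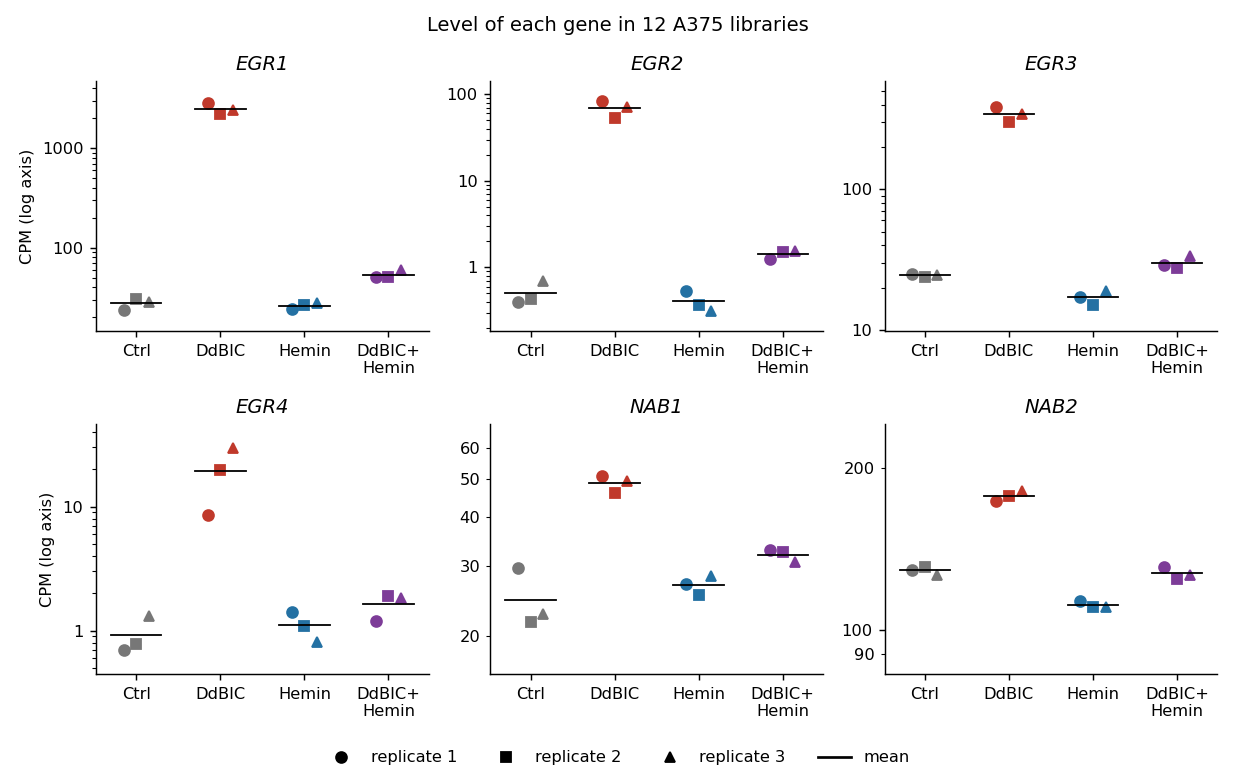
CPM (log axis, a separate range for each gene) of the 6 genes in the 12 libraries, with 1 symbol per replicate number and a line at the group mean. All 3 DdBIC libraries are the highest in every panel; EGR1 is at 2189 to 2878 CPM there and at 23.8 to 59.3 CPM in the other libraries.

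In DdBIC against Ctrl all 6 genes were past an adjusted p of 0.05 and higher, where 37.2% of all tested genes passed in either direction. In DdBIC+Hemin against DdBIC all 6 passed and were lower, where 31.9% of all tested genes passed. The interaction, which subtracts the DdBIC effect seen without hemin from the one seen with it, was negative and past the threshold for all 6, where 16.6% of all tested genes passed. Since these values chose the set, nothing is read from the counts. The medians over the 6 genes were 4.09, -3.53 and -3.40 on the log2 scale, and the medians of all tested genes were -0.0082, -0.0104 and -0.0091. The interaction was largest for EGR1 (-5.47 ± 0.181) and EGR2 (-5.29 ± 0.413), followed by EGR4 (-3.80 ± 0.667), EGR3 (-2.99 ± 0.156), NAB1 (-0.73 ± 0.144) and NAB2 (-0.26 ± 0.0416).

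Since the DdBIC rise chose the set, the part of it that was left with hemin is a description. DdBIC added 2466 CPM of EGR1 without hemin and 27.4 CPM with it, 1.11% of the former. The share that remained was 1.48% for EGR2, 2.93% for EGR4 and 4.06% for EGR3. For the corepressors it was 21.6% in NAB1, where 24.2 CPM were added without hemin and 5.21 CPM with it, and 33.5% in NAB2, where 48.5 CPM were added without and 16.2 CPM with hemin. On the log2 scale the shares that remained were closer to each other, at 13% to 25.9% for 5 of the genes and 42.7% for NAB2. The order of the genes by remaining share thus depends on the scale, and differences between these shares were not tested.

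Hemin alone moved 2 of the 6 genes, EGR3 and NAB2, both lower, where 4.06% of all tested genes passed in either direction. This comparison shares its Ctrl libraries with the one of DdBIC against Ctrl that chose the set. EGR3 fell by 0.53 ± 0.111 on the log2 scale (adjusted p = 0.0275, edgeR quasi-likelihood test with Benjamini-Hochberg adjustment, as for the p-values that follow), with all 3 Hemin libraries below all 3 Ctrl libraries. That call was lost in 5 of the 12 fits without 1 library, with an adjusted p of 0.0743 to 0.103 without any single Ctrl library or without Hemin replicate 1 or 2. NAB2 fell by 0.22 ± 0.0295 (adjusted p = 0.00223), also with no overlap, from 129 ± 2.28 to 111 ± 1.67 CPM. For EGR1 the log2 fold change was -0.08 with a 95% interval of -0.36 to 0.20 (adjusted p = 0.838). The intervals for EGR2 (-1.04 to 0.41) and EGR4 (-0.87 to 1.39) were wider, and that for NAB1 was -0.10 to 0.35. Nothing in the labels says that the 3 libraries of a group came from separate cultures, so the p-values measure the spread between these samples, which may be technical.

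In cells that had hemin, DdBIC still raised 4 of the 6 genes, where 6.8% of all tested genes passed in either direction. This comparison of DdBIC+Hemin with Hemin shares its DdBIC+Hemin libraries with the comparison that chose the set. EGR1 rose 2.05-fold (log2 fold change 1.04 ± 0.123, adjusted p = 0.00108), EGR2 rose 3.48-fold (1.80 ± 0.278, adjusted p = 0.00355) and EGR3 rose 1.76-fold (0.82 ± 0.111, adjusted p = 0.0017). NAB2 rose 1.15-fold (0.20 ± 0.0295, adjusted p = 0.00242). In each of these 4 genes the 3 DdBIC+Hemin libraries lay above the 3 Hemin libraries, and each call held without any single library. NAB1 did not overlap either, but its log2 fold change of 0.26 ± 0.102 had an adjusted p of 0.186. EGR4 overlapped, with a log2 fold change of 0.57 and a 95% interval of -0.50 to 1.64.

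The difference of DdBIC+Hemin from Ctrl is the sum of the 2 comparisons that chose the set, and both of its groups stand in them, so it is given as values without a test. In it 3 of the 6 genes, EGR1, EGR2 and NAB1, were past the threshold and higher, where 12.4% of all tested genes passed in either direction, and nothing is read from that count. EGR1 was 1.95-fold higher (log2 fold change 0.96 ± 0.123) and EGR2 2.80-fold higher (1.49 ± 0.268), both without overlap between the libraries. NAB1 was 1.3-fold higher (0.38 ± 0.102), and its place past the threshold was lost without Ctrl replicate 2 or 3 or any single DdBIC+Hemin library. EGR3 had a log2 fold change of 0.29 ± 0.109 with no overlap, and EGR4 one of 0.83 with a 95% interval of -0.26 to 1.92. NAB2, which was lower with hemin alone and higher with DdBIC, had a log2 fold change of -0.02 with a narrow interval of -0.085 to 0.045.

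**Figure D3:**
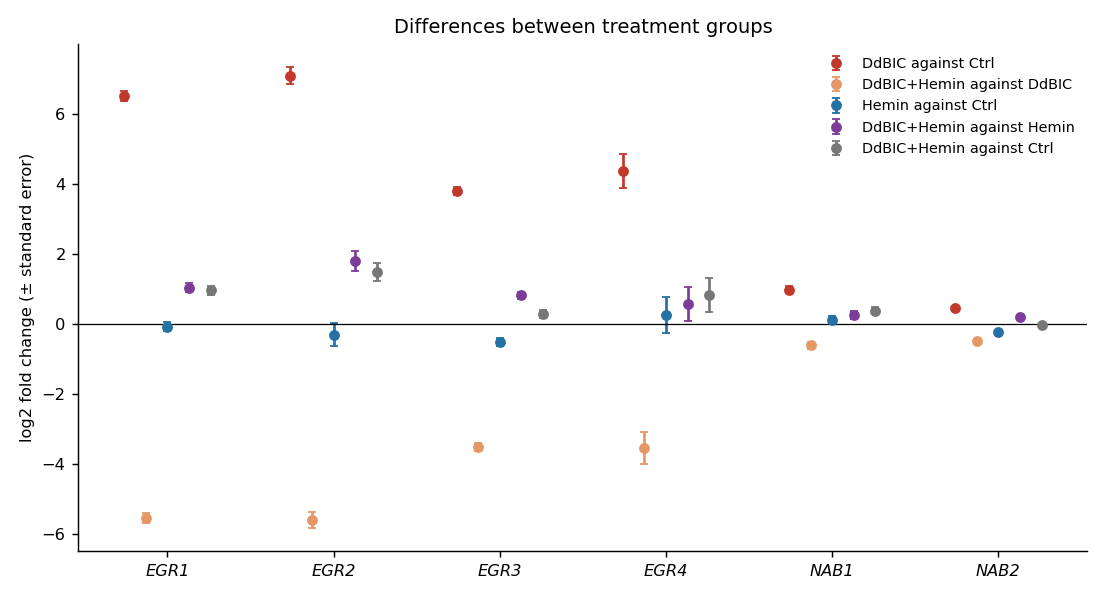
log2 fold change (vertical axis) of the 6 genes in 5 comparisons, with bars of 1 standard error. The 4 EGR genes lie at 3.81 to 7.09 in DdBIC against Ctrl and at -5.60 to -3.52 in DdBIC+Hemin against DdBIC; the comparisons with hemin on both sides, or with both treatments against Ctrl, give 0.29 to 1.80 for them.

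Since TPM values are scaled by length, they allow the factors and their corepressors to be set side by side. In Ctrl cells NAB2 was the most abundant transcript of the set at 105 TPM, followed by NAB1 at 20.9 and EGR1 at 18.1 TPM, which overlapped each other, and by EGR3 (13), EGR4 (0.801) and EGR2 (0.347 TPM). In DdBIC cells the order was EGR1 (1650), EGR3 (180), NAB2 (146), EGR2 (52.8), NAB1 (42.2) and EGR4 (16.8 TPM), and only EGR2 and NAB1 overlapped. Hemin cells had the Ctrl order without any overlap between neighbours. In DdBIC+Hemin cells EGR1 (34.5 TPM) lay above NAB1 (27.8 TPM) but still below NAB2 (101 TPM), and EGR4 and EGR2 overlapped.

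The 4 EGR transcripts summed to 32.3 ± 2.30 TPM in Ctrl and the 2 NAB transcripts to 126 ± 7.51 TPM. In DdBIC the sums were 1900 ± 258 and 188 ± 5.01 TPM. The ratio of EGR to NAB transcripts was 0.221, 0.269 and 0.283 in the Ctrl libraries, 11.6, 8.95 and 9.67 in DdBIC, 0.230, 0.244 and 0.254 in Hemin and 0.375, 0.398 and 0.450 in DdBIC+Hemin. NAB transcripts thus outnumbered EGR transcripts in every library without DdBIC and in those with both treatments, and EGR transcripts outnumbered NAB transcripts in the DdBIC libraries. The make-up of the EGR sum differed as well. EGR1 gave 56.0 ± 3.17% of it in Ctrl, 86.8 ± 0.861% in DdBIC, 61.6 ± 2.87% in Hemin and 65.7 ± 0.938% in DdBIC+Hemin, while EGR3 gave 40.4 ± 3.10%, 9.51 ± 0.29%, 34.0 ± 2.34% and 29.7 ± 0.896%. These are transcript numbers, and protein was not measured.

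**Figure D4:**
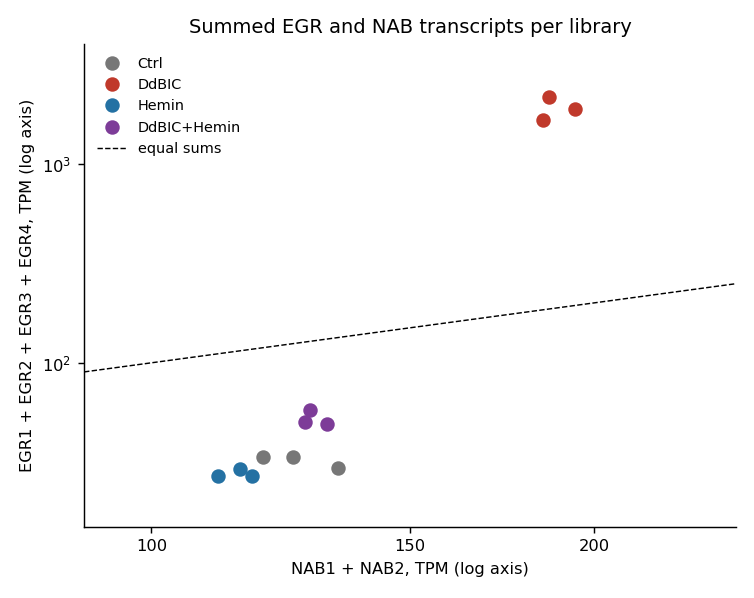
Summed TPM of EGR1 to EGR4 (vertical, log axis) against summed TPM of NAB1 and NAB2 (horizontal, log axis) in each of the 12 libraries, with a dashed line where the sums are equal. The 3 DdBIC libraries lie above the line, with ratios of 8.95 to 11.6, and the other 9 lie below it, with ratios of 0.221 to 0.450.

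Within the DdBIC group the genes did not vary alike. EGR1, EGR2 and EGR3 were each highest in replicate 1 and lowest in replicate 2, with spans from lowest to highest of 0.395, 0.641 and 0.359 on the log2 scale. EGR4 was lowest in replicate 1 and highest in replicate 3, with a span of 1.77. Of the 10678 genes that averaged 5 CPM or more, 0.628% had a larger span in the DdBIC libraries than EGR4, against 10.4% for EGR1, 4.94% for EGR2 and 12.3% for EGR3. NAB1 had a span of 0.138, near the middle of these genes (48.3% had a larger one), and NAB2 one of 0.0584, with 84.2% of genes above it. What EGR4 follows in these libraries was not tested.

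Over the 12 libraries the genes whose log2 CPM was most like that of EGR1 were DUSP1 (Pearson r = 0.9982), JUNB (0.9975) and CXCL1 (0.9971), out of 10677 genes compared. For EGR2 they were FOSB (0.9957), DUSP1 (0.9953) and IER3 (0.9951). EGR3 was most like ETV3 (0.998), NR4A3 (0.9969) and NFKB2 (0.9961). EGR4 was most like KLF10 (0.9799), ZUFSP (0.9788) and TOP1 (0.97). NAB1 came nearest to KCNJ12 (0.9789), LYSMD3 (0.9706) and SHC4 (0.9695), and NAB2 to PI4K2A (0.99), BCAR3 (0.9897) and CREBRF (0.9896). Within the set the coefficient was 0.993 for EGR1 with EGR2 and with EGR3, 0.956 for EGR1 with EGR4, 0.971 for EGR3 with NAB2 and 0.845 for NAB1 with NAB2. These describe 4 groups of 3 libraries that share their treatments, in which the DdBIC libraries stand apart, and they are given without a test.

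The genes that act on, with and below the EGR and NAB proteins were followed in lists written from general knowledge of the pathway. Upstream, 3 of 6 tested genes of SRF and its partners rose in DdBIC against Ctrl and 0 fell. All list counts in this comparison stand beside the 37.2% of all tested genes that passed in it, and nothing is called particular to a list from them. These were ELK4 (log2 fold change 0.39, adjusted p = 0.000466), SRF itself (0.27, adjusted p = 0.000223), from 79.6 to 95.8 CPM, and ELK3 (0.13, adjusted p = 0.00135). Of 15 RAS-ERK kinase genes 2 rose and 4 fell, a share near the 37.2% of all tested genes, with a list median of 0.03. BRAF rose from 39.3 to 58.1 CPM (0.56, adjusted p = 7.91e-07) and RPS6KA3, a kinase that ERK activates, from 320 to 473 CPM (0.56, adjusted p = 1.64e-08). RPS6KA2 (-0.55, adjusted p = 0.0021) and RPS6KA4 (-0.36, adjusted p = 0.000195) fell. So did MAPK3 (-0.33) and HRAS (-0.23), both named after their values were seen and given as descriptions.

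Of 14 other immediate-early genes 12 rose and 0 fell in DdBIC against Ctrl, with a median log2 fold change of 3.02 against -0.0082 over all tested genes. JUN rose from 40.9 to 2000 CPM (5.61, adjusted p = 2.59e-10) and FOS, its partner in the AP-1 factor, from 3.83 to 177 CPM (5.52, adjusted p = 2.1e-06). ATF3 rose to 169 ± 77.8 CPM (4.42, adjusted p = 2.43e-05) and ZFP36, an mRNA decay factor, to 227 ± 117 CPM (4.29, adjusted p = 1e-05), both with a wide spread between the DdBIC libraries. With hemin added to DdBIC 12 of the 14 fell (31.9% of all tested genes passed). In DdBIC+Hemin against Hemin 8 rose and 1 fell (6.8% of all tested genes passed), with a median of 0.62, where the median of the 6 EGR and NAB genes was 0.69. With hemin alone, where 4.06% of all tested genes passed, 1 of the 14 did so, JUN, which rose by 0.72 (adjusted p = 0.00225) where EGR1 did not pass.

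Among the genes of the NuRD complex, which NAB proteins recruit, 1 of 14 rose and 3 fell in DdBIC against Ctrl, a share below the 37.2% of all tested genes. GATAD2B rose from 97.4 to 124 CPM (0.35, adjusted p = 0.000192). CHD3 fell from 168 to 128 CPM (-0.39, adjusted p = 1.12e-05), RBBP7 by 0.27 (adjusted p = 0.00326) and the deacetylase HDAC1 from 226 to 192 CPM (-0.24, adjusted p = 0.000124). CHD4, the subunit that NAB2 binds, was named for that role after its values were seen, so they are descriptions. It was at 835 CPM in Ctrl and 816 CPM in DdBIC (log2 fold change -0.03). The log2 fold change was -0.12 with hemin alone and -0.18 with hemin added to DdBIC. In DdBIC+Hemin against Hemin the 14 genes had log2 fold changes of -0.13 to 0.18. Of 4 coactivators and partners of EGR proteins EP300, a histone acetyltransferase, rose from 139 to 194 CPM (0.48, adjusted p = 2.45e-05). Of 6 factors that share GC-rich sites with EGR proteins SP4 (0.21, adjusted p = 0.0175) and SP3 (0.13, adjusted p = 0.0139) rose.

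Genes known as EGR1 targets moved in part. Of 21 such genes 9 rose, 2 fell and 10 did not pass in DdBIC against Ctrl, with a median log2 fold change of 0.10, where 37.2% of all tested genes passed. GADD45A, a growth arrest and DNA damage gene, rose from 40.1 to 207 CPM (2.37, adjusted p = 4.54e-06), the adhesion molecule ICAM1 from 57.7 to 214 CPM (1.89, adjusted p = 7.18e-09) and PDGFA, a growth factor gene, from 22.6 to 52.1 CPM (1.21, adjusted p = 6.66e-07). GDF15, a stress cytokine gene, rose from 11.2 to 29.1 CPM (1.38, adjusted p = 6.23e-06). The 2 that fell were the matrix genes THBS1 (-0.32) and FN1 (-0.22). Both were named after their values were seen, so these are descriptions. With hemin added to DdBIC 5 of the 21 rose and 8 fell, where 31.9% of all tested genes passed. GDF15 did not follow EGR1 there, at 32.8 CPM with both treatments (log2 fold change 0.17 against DdBIC, adjusted p = 0.318), and it rose with hemin alone (0.70, adjusted p = 0.00819).

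In DdBIC+Hemin against Hemin, where EGR1 rose 2.05-fold, 7 of the 21 EGR1 targets rose and 4 fell, where 6.8% of all tested genes passed. PDGFA rose by 0.49 (adjusted p = 0.0041) and GDF15 by 0.85 (adjusted p = 0.00162) on the log2 scale. ICAM1 rose by 0.27 (adjusted p = 0.0377), while GADD45A did not pass, with a log2 fold change of 0.21 (adjusted p = 0.56). Of 8 genes that EGR2 switches on in myelinating cells 0 rose and 4 fell in DdBIC against Ctrl, where 37.2% of all tested genes passed. Those named here were GJB1 (-0.41, adjusted p = 0.0032), ERBB3 (-0.34, adjusted p = 0.000282) and PMP22 (-0.18, adjusted p = 0.00111). Of 8 genes that EGR2 and EGR3 act on in lymphocytes 6 could be tested, with log2 fold changes of -0.17 to 0.95 in DdBIC against Ctrl and a smallest adjusted p of 0.0632. FASLG and IL2, the other two, were at or near 0.

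**Figure D5:**
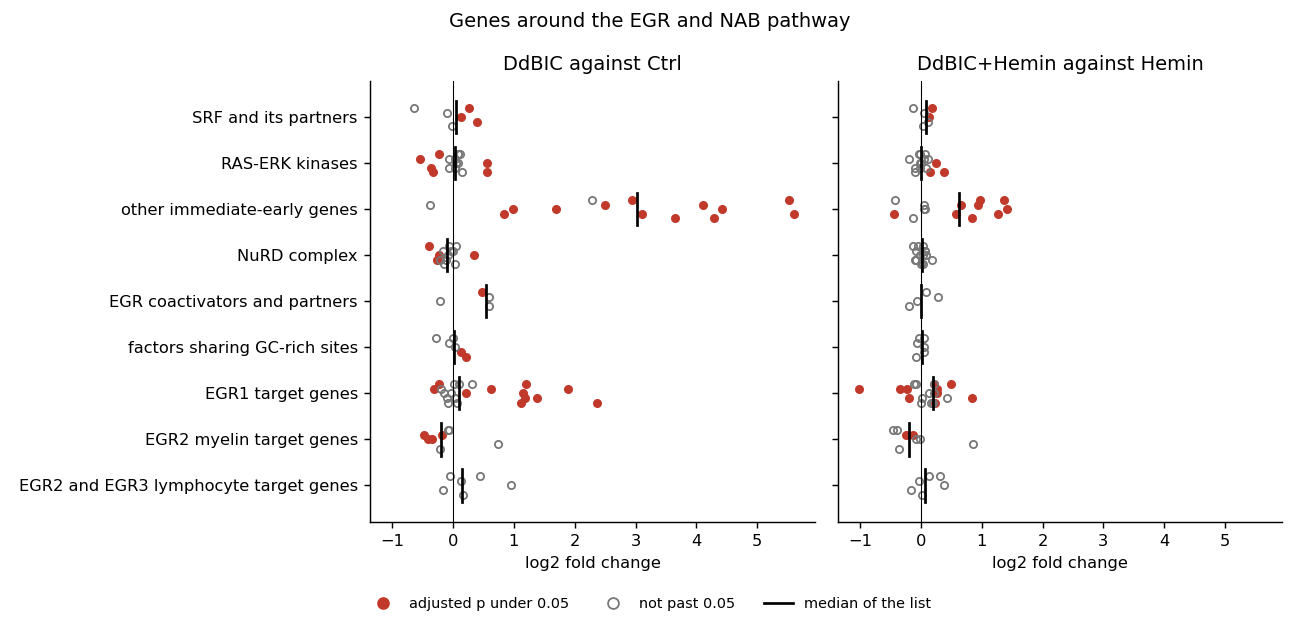
log2 fold change (horizontal axis) of each tested gene of 9 pathway lists in DdBIC against Ctrl (left) and DdBIC+Hemin against Hemin (right), filled where the adjusted p was under 0.05, with a bar at the list median. The median of the other immediate-early genes is 3.02 on the left and 0.62 on the right, and those of SRF and its partners, the RAS-ERK kinases and the NuRD complex lie between -0.10 and 0.08 in both panels.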

How the data were processed

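RNA of A375 cells in 4 groups of 3 libraries was extracted with Trizol and sequenced. The submitters' notes name Trim Galore, Subread, featureCounts and the build hg38, without versions. The authors deposited the count of reads per gene, which is not normalized, and beside it TPM (scaled for length, with the same sum in all libraries) and FPKM (scaled for length and depth). The deposited FPKM values were not used here. Use of strand is not given in the sources used here.

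The tests were run on the counts in R 4.3.3 with edgeR 4.0.16, using filterByExpr by group (14287 of 20263 genes), TMM factors (0.989 to 1.01), a robust quasi-likelihood fit with 1 mean per group over 12 libraries (8 residual degrees of freedom) and Benjamini-Hochberg adjustment over all tested genes, with 0.05 as the threshold. Standard errors were obtained by dividing the size of the log2 fold change by the square root of F. TPM values served to compare levels between genes, and correlations used log2 CPM with a prior count of 2. Intervals are 95% intervals of the fit. Replicate libraries correlated at 0.985 to 0.988 across genes, with 0 identical pairs. On simulated counts of 14153 genes, 200 were changed by 1 on the log2 scale in DdBIC against Ctrl. Of these 85.5% were recovered, and 3.39% of calls were false. The data gave 5310 calls in that comparison, many of them for other sizes of change, so these shares need not hold for them.

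The genes of the set and the pathway lists were chosen with earlier results of these data known, so no list was tested as a set and no p-value was adjusted over a list alone. The genes named from each list were up to 4 with the largest absolute log2 fold change in DdBIC against Ctrl among those past the threshold that averaged 5 CPM or more, and for each EGR and NAB gene the 3 genes with the highest correlation; HMOX1 served as a check of the labels. Genes named outside this rule are those marked as such, the cell type markers, the genes that overlap an EGR or NAB gene, and the untested FASLG and IL2. Some genes that this rule names are not reported here. Alternatives were DESeq2 1.42.0, upper-quartile factors, library size only, no filter, at least 10 counts in every library, a replicate block, only the groups compared, and leaving out each library.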

Additional observations from a re-analysis of the deposited data

Results flagged for a closer look

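The DdBIC effect differed between cells without and with hemin, past the threshold of edgeR's interaction test, in the named genes below that lie outside the EGR and NAB set. Each value is the effect with hemin minus that without, on the log2 scale, from 3 libraries per group. Apart from HMOX1 and FN1, these genes were named for a large log2 fold change in DdBIC against Ctrl, which the interaction subtracts, and FN1 was named after its values were seen, so their values are descriptions and no p-value is given. For early response genes and EGR1 targets they were JUN -4.35, FOS -4.15, ZFP36 -4.42, ATF3 -3.01, GADD45A -2.16, ICAM1 -1.62, PDGFA -0.72 and FN1 0.43. Among kinases and EGR partners the values were BRAF -0.41, RPS6KA3 -0.32, RPS6KA4 0.26, EP300 -0.40, SP4 -0.29, GATAD2B -0.26, CHD3 0.26 and HDAC1 0.22. For the myelin gene ERBB3 the value was 0.32. It was at 391 CPM in Ctrl, 310 in DdBIC, 309 in Hemin and 305 CPM in DdBIC+Hemin, and so was lower than Ctrl in every treated group. HMOX1, which served to check the hemin labels, had a value of 1.57 (adjusted p = 2.23e-05), with 169 ± 21.4 CPM in DdBIC+Hemin against 63.2 ± 2 CPM in Hemin, while it was at 7.82 ± 0.795 CPM in DdBIC and 8.71 ± 0.632 CPM in Ctrl.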

How the results depend on the processing

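Of the 12 values of the 6 genes in the comparisons given with a test (Hemin against Ctrl and DdBIC+Hemin against Hemin), 9 kept their direction and their side of the threshold under every alternative run. EGR1 in Hemin against Ctrl, which was not called in any of them, turned from -0.08 to 0.0018 without Ctrl replicate 2 and ranged from -0.168 to 0.0018 over the fits without 1 library. EGR3 in Hemin against Ctrl lost its call in 5 fits without 1 library (adjusted p up to 0.103). NAB1 in DdBIC+Hemin against Ctrl lost it with only the groups compared and in 5 fits without 1 library, and gained one against Hemin without Ctrl replicate 1 (0.0271). EGR3 in DdBIC+Hemin against Ctrl gained a call with the replicate block. The cause was not tested. Over all genes, Hemin against Ctrl gave 580 calls, 881 with DESeq2 and 272 to 623 without 1 library, lowest without Hemin replicate 2. DdBIC+Hemin against Hemin gave 971 calls, 569 with only the groups compared, a fit with fewer libraries, and 612 to 934 without 1 library, lowest without DdBIC+Hemin replicate 1. Over all tested genes, libraries with the same replicate number did not deviate together (18 pairs, r -0.0462 to 0.081). This cannot show that they share only a number. EGR3 was lowest in replicate 2 in every group. With the replicate block its standard error in DdBIC against Ctrl went from 0.118 to 0.0836, while that of EGR1 went from 0.149 to 0.16. The replicate block gave 5084 calls in DdBIC against Ctrl (5310 without it) and 408 in Hemin against Ctrl. Upper-quartile factors moved the share of calls that were higher from 53.8% to 40.0% in DdBIC against Ctrl, from 42.4% to 59.2% in DdBIC+Hemin against DdBIC and from 38.5% to 55.4% in the interaction. With library size only, that share was 42.3% against 54.6% in DdBIC+Hemin against Hemin and 34.4% against 45.6% in DdBIC+Hemin against Ctrl. The EGR and NAB genes that passed kept their direction under both. Wide intervals of EGR2 and EGR4, whose counts outside DdBIC were low, limit what could be detected for them, and 3 libraries per group limit all comparisons. For EGR4 in DdBIC+Hemin against Hemin, the standard error was 0.477, and 0.307 without DdBIC replicate 1.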

Other observations

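FN1, the fibronectin gene and an EGR1 target, turned direction between the cells without and with hemin. The gene was named after its values were seen, so these are descriptions without a test. With DdBIC in cells without hemin FN1 was lower by 0.22 on the log2 scale, from 1320 ± 35.5 to 1130 ± 40.5 CPM. In cells that had hemin it was higher by 0.21 with DdBIC, from 1190 ± 28.6 to 1370 ± 70.7 CPM. THBS1, also named after its values were seen, was lower in both settings, by 0.32 without hemin and by 0.35 with it. Its interaction was -0.03.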
